A study of Rattus norvegicus with 24 samples.

Results

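Junb, Ier5, Phlda1, Myc, Klf4 and Cebpb are genes whose transcripts respond to growth factors and stress, and they were taken by their symbols in the array platform's annotation. They are 6 of 13337 named genes on the array and are represented by 7 probes. Immediate early genes are transcribed within minutes of a stimulus without new protein synthesis, and several of them encode transcription factors that set the later response. Junb encodes a subunit of the AP-1 transcription factor, Myc the growth regulator c-Myc, Klf4 a zinc finger factor that in endothelial cells is known as a flow-responsive regulator, and Cebpb a leucine zipper factor of inflammation and stress responses. Ier5 encodes a nuclear protein known to interact with the heat shock factor HSF1, and Phlda1 a pleckstrin homology-like domain protein linked to the control of cell survival. In cell culture the early wave of these transcripts usually fades within hours, and the samples here were taken at a single late time.

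Expression was measured on Illumina bead arrays in RBEC4, a rat cell line described in the labels as blood-brain barrier cells. Cells at 95% confluence were left unexposed (control, 4 arrays) or received 1 ppm of silver nanoparticles for 18 h, with 5 arrays for each particle. The particles were coated with polyvinylpyrrolidone and 10 nm (PVP10) or 75 nm (PVP75) in size, or coated with citrate and 10 nm (citrate10) or 75 nm (citrate75) in size. Arrays are numbered within a group, and no label ties them to separate cultures. The p-values below therefore measure the spread between these samples only, and part or all of it may be technical. No treatment other than the particles is named for any group, and a control with the coating agent or with dissolved silver alone was not analysed here.

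Between 2128 and 2576 of 22523 probes were detected per array (detection p under 0.01), and 2774 probes detected on at least 4 arrays were tested. The arrays lay on 2 BeadChips, called chip 1 and chip 2, and both chips held every group. Chip 1 carried 1 control array and chip 2 carried 3. Of 15 brain endothelial markers on the array, 3 were measured (Tjp1, Tie1 and Cav1), while Cdh5, Tek, Vwf and Flt1 were detected on 0 arrays. The summed deposited signal of the 3 measured markers lay between 1622 and 1779 in control and between 1077 and 1315 in PVP10. It lay between 1231 and 2066 in PVP75, 1482 and 1908 in citrate10, and 1438 and 1999 in citrate75. Tjp1 encodes a tight junction scaffold and Cav1 the coat protein of caveolae. They fell in PVP10 by 0.36 and 1.01 on the log2 scale, and Tie1 differed by 0.08 and was not called. The measured Tie1 probe was detected on only 6 of 24 arrays, which limits what its difference can show. Cav1 also fell in PVP75, by 0.38 against control (limma adjusted p = 0.0216) and by 0.46 against citrate75 (adjusted p = 0.000886), while Tjp1 and Tie1 were not called in PVP75 against control. None of the 5 astrocyte, 9 pericyte and fibroblast or 5 microglia markers on the array was measured, that is 0 in each list, and of 6 neuron markers 1 was, Rbfox3, with a signal between 92.9 and 113 on all arrays. The part of these markers in the results below was not tested. In bulk RNA, fewer cells of a type and less RNA per cell cannot be told apart.

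Of the 6 genes, 5 had a promoter window in the RefSeq table of the rat assembly GRCr8, running from 250 bases before the annotated start to 50 bases after it. The 250 bases before the start are shown for Junb, Ier5 and Cebpb, the genes with higher signal in PVP10 whose windows held matches of the motifs described next. The Klf4 window also held matches and is not shown, and the Phlda1 window held none. Capitals mark the motif matches, read 5′ to 3′ on the strand of the gene. The Junb stretch lies at chr19:40080876-40081125 on the plus strand, the Ier5 stretch at chr13:69822543-69822792 on the minus strand, and the Cebpb stretch at chr3:176816755-176817004 on the plus strand.
Junb: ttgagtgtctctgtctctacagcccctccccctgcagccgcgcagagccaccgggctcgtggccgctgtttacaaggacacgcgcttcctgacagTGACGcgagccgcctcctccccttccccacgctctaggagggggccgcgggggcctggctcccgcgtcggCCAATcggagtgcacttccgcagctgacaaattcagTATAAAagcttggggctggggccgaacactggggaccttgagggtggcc
Ier5: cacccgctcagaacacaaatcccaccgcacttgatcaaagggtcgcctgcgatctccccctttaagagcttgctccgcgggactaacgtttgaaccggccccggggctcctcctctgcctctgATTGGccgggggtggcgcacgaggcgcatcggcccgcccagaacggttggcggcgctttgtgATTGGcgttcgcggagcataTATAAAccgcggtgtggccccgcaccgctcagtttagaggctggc
Cebpb: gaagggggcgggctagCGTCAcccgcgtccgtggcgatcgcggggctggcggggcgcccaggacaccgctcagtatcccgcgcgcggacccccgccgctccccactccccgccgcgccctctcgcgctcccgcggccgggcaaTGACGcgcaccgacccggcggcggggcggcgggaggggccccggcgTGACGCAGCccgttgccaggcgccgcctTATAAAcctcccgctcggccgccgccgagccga

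Each motif was searched on both strands, and its share was counted over the 33469 promoter windows of the table. The antioxidant response element core TGACNNNGC occurred in the Cebpb window, at positions -61 to -53 (position -1 is the last base before the start), and in 12.1% of all windows. The 5 windows held no match of the AP-1 motif TGAGTCA (4.63% of all windows), the CRE motif TGACGTCA (1.83%), the E-box CACGTG (6.42%), the C/EBP palindrome TTGCGCAA (0.17%), the CArG box (1.64%) or the GC box GGGGCGGGG (9.73%). The shorter motifs TGACG (the core of the CRE, in 21.2% of windows), CCAAT (37.5%) and TATAAA (14.2%) were added after the first search. In the Junb window TGACG began at -155, CCAAT at -85 and TATAAA at -49. In the Ier5 window CCAAT lay on the opposite strand at -127 and -65, and TATAAA began at -45. In the Cebpb window TGACG occurred 3 times, at -61 as the first letters of the TGACNNNGC match, and TATAAA began at -33. In the Klf4 window, of a gene that fell, TATAAA lay on the opposite strand in 2 places, with their first bases at -146 and -78. The G and C share of the window was 65.3% in Junb, 62.3% in Ier5, 77% in Phlda1, 45% in Klf4 and 81% in Cebpb, against a median of 51.7% over all windows. These are matches of letters only, and no binding was measured.

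Detection differed between the genes. The probes of Junb, Ier5, Myc and Cebpb were detected on 24 of 24 arrays. The Phlda1 probe was detected on 3 of 4 control arrays, 4 of 5 citrate75 arrays and 5 of 5 arrays in each of the other groups. The Klf4 probe was detected on 3 of 4 control, 2 of 5 PVP10, 4 of 5 PVP75, 5 of 5 citrate10 and 5 of 5 citrate75 arrays. A further probe of Ier5 was detected on 0 of 24 arrays and was not tested, so all 6 genes passed the filter through 1 probe each. In deposited signal, Ier5, Phlda1 and Klf4 lay between 94.6 and 221, close to the array medians of 84.3 to 94.3. Junb lay between 260 and 602, Myc between 1261 and 3219, and Cebpb between 1894 and 4210. Levels below are log2 intensities after background correction and quantile normalization, and they are compared only within a probe.

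**Figure D1:**
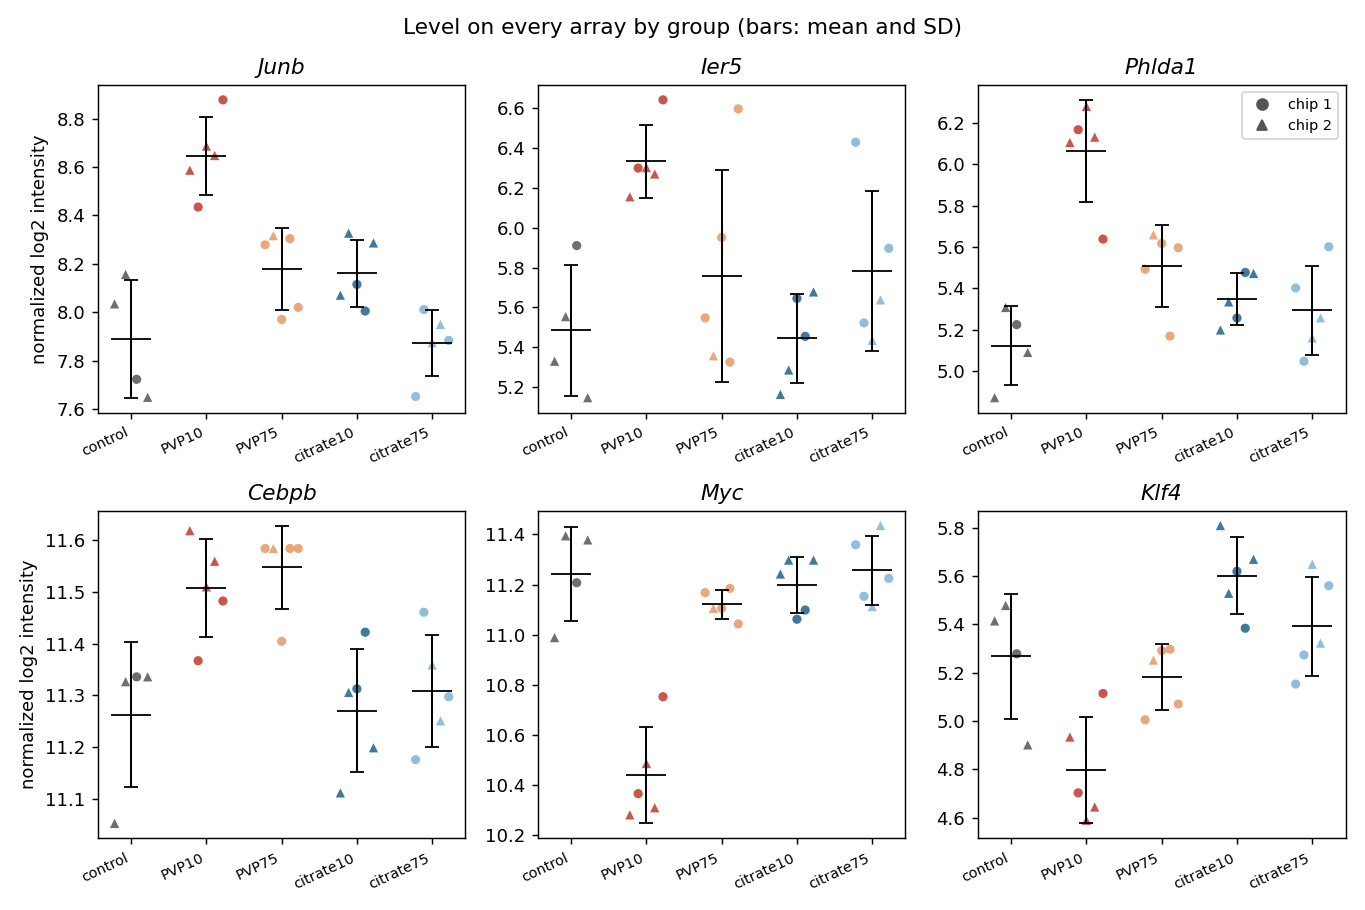
Normalized log2 intensity of the 6 genes on each of the 24 arrays, by group, with bars for the group mean and SD, circles for chip 1 and triangles for chip 2. In PVP10 every array lies above every control array for Junb, Ier5, Phlda1 and Cebpb and below every control array for Myc. The Klf4 arrays of the 2 groups overlap, as do the deposited signals of Junb, Ier5 and Cebpb before normalization. The share of all tested probes that separated in this way was not counted.

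The comparison of PVP10 with control asks how the small PVP-coated particles changed these transcripts. Junb, Ier5, Phlda1 and Cebpb rose and Myc and Klf4 fell, so 6 of 6 genes were called (limma with Benjamini-Hochberg adjustment over 2774 probes, adjusted p under 0.05). In the same comparison 41.5% of all tested probes were called, 20.1% higher and 21.4% lower, so calls were common throughout the array. The log2 fold changes of the 6 genes ran from -0.80 to 0.94, so their median of 0.51 describes no shared shift. Over all tested probes the median was -0.01. The 6 genes were chosen with earlier results of these data known, so neither their count nor their median tests them as a set. Each fold change below is from the fit with the chip as a term, whereas array values and group means are not adjusted for the chip.

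Junb, the AP-1 subunit gene, stood in the control arrays at 8.03, 8.16, 7.72 and 7.65. In PVP10 it stood at 8.59, 8.43, 8.69, 8.65 and 8.88. All 5 PVP10 arrays lay above all 4 control arrays at this normalized level. The deposited signals, which are not normalized, overlapped (354 to 602 in PVP10 and 277 to 380 in control). Here and for the genes below, the share of all tested probes whose groups did not overlap was not counted. The means were 7.89 ± 0.243 (SD, n = 4) and 8.65 ± 0.161 (SD, n = 5), and the fitted rise was 1.71-fold (log2 fold change 0.77, SE 0.11, limma adjusted p = 1.42e-06). In PVP75 the arrays read 8.28, 8.32, 7.97, 8.30 and 8.02, in citrate10 8.07, 8.33, 8.12, 8.01 and 8.29, and in citrate75 7.65, 8.01, 7.87, 7.95 and 7.88. Arrays of these 3 groups overlapped the control range. The order of the means was PVP10, PVP75 (8.18 ± 0.168, n = 5), citrate10 (8.16 ± 0.139, n = 5), control and citrate75 (7.87 ± 0.136, n = 5). PVP75 and citrate10 differed by less than their SDs, as did control and citrate75.

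Ier5, the gene of the HSF1-interacting protein, read 5.33, 5.55, 5.91 and 5.15 in control. The PVP10 arrays read 6.16, 6.30, 6.30, 6.27 and 6.64, above every control array. In deposited signal the 2 groups overlapped narrowly (136.6 to 173.9 in PVP10 and 112.8 to 137.4 in control). The means of the log2 levels were 5.49 ± 0.329 (SD, n = 4) and 6.33 ± 0.183 (SD, n = 5), a fitted rise of 1.74-fold (log2 fold change 0.80, SE 0.182, limma adjusted p = 0.000726). PVP75 read 5.55, 5.36, 5.95, 5.33 and 6.60, with the fifth array at the level of PVP10. Citrate10 read 5.16, 5.29, 5.65, 5.45 and 5.68, and citrate75 read 6.43, 5.52, 5.43, 5.64 and 5.90, with its first array at the level of PVP10. Both high arrays were on chip 1, and Ier5 was lower on chip 2 than on chip 1 by a fitted log2 difference of -0.35, which was not called (limma adjusted p = 0.161). The chip term was called for 1.08% of all probes (1.01% higher and 0.0721% lower on chip 2) and for 0 of the 6 genes. The order of the means was PVP10, citrate75 (5.78 ± 0.400, n = 5), PVP75 (5.76 ± 0.532, n = 5), control and citrate10 (5.45 ± 0.223, n = 5). The 4 groups other than PVP10 lay within 1 SD of one another in neighbouring pairs.

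Phlda1, the pleckstrin homology-like domain gene, read 4.87, 5.31, 5.22 and 5.09 in control. It read 6.10, 6.17, 6.28, 6.13 and 5.64 in PVP10. The fifth PVP10 array was lower than the other 4 and still above every control array. The means were 5.12 ± 0.190 (SD, n = 4) and 6.06 ± 0.247 (SD, n = 5), and the fitted rise was 1.92-fold (log2 fold change 0.94, SE 0.128, limma adjusted p = 6.29e-07). PVP75 read 5.49, 5.66, 5.62, 5.17 and 5.60, citrate10 read 5.20, 5.33, 5.26, 5.48 and 5.47, and citrate75 read 5.40, 5.05, 5.16, 5.26 and 5.60. These 3 groups overlapped control. The order of the means was PVP10, PVP75 (5.51 ± 0.198, n = 5), citrate10 (5.35 ± 0.125, n = 5), citrate75 (5.29 ± 0.215, n = 5) and control, and the neighbours from PVP75 downwards differed by less than 1 SD of the wider group.

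Myc, the gene of the growth regulator c-Myc, read 10.99, 11.39, 11.21 and 11.38 in control. It read 10.28, 10.36, 10.48, 10.31 and 10.75 in PVP10, with every array below every control array. The means were 11.24 ± 0.189 (SD, n = 4) and 10.44 ± 0.192 (SD, n = 5), a fitted level 1.74-fold lower (log2 fold change -0.80, SE 0.103, limma adjusted p = 2.71e-07). PVP75 read 11.17, 11.11, 11.11, 11.18 and 11.04, citrate10 read 11.24, 11.30, 11.06, 11.10 and 11.30, and citrate75 read 11.36, 11.15, 11.11, 11.44 and 11.22. All 15 of these arrays also lay above every PVP10 array at this normalized level. In deposited signal PVP10 reached 2100, above the minima of PVP75 (1820), citrate10 (2043) and citrate75 (1828) and below that of control (2257). The order of the means was citrate75 (11.26 ± 0.137, n = 5), control, citrate10 (11.20 ± 0.112, n = 5), PVP75 (11.12 ± 0.0568, n = 5) and PVP10, and the neighbours above PVP10 differed by less than 1 SD of the wider group.

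Klf4, the zinc finger factor gene, read 5.41, 5.48, 5.28 and 4.90 in control. It read 4.93, 4.70, 4.59, 4.64 and 5.11 in PVP10, and it was detected on PVP10 replicates 1 and 5. These 2 PVP10 arrays lay above the lowest control array, so the groups overlapped. The means were 5.27 ± 0.258 (SD, n = 4) and 4.80 ± 0.221 (SD, n = 5), a fitted level 1.38-fold lower (log2 fold change -0.46, SE 0.127, limma adjusted p = 0.00376). PVP75 read 5.00, 5.25, 5.29, 5.30 and 5.07, citrate10 read 5.81, 5.53, 5.62, 5.38 and 5.67, and citrate75 read 5.15, 5.27, 5.65, 5.32 and 5.56. Every citrate10 and citrate75 array lay above every PVP10 array at this normalized level. In deposited signal PVP10 (94.6 to 105) overlapped citrate75 (103 to 129) but not citrate10 (115 to 128) or control (107 to 122). The order of the means was citrate10 (5.60 ± 0.159, n = 5), citrate75 (5.39 ± 0.206, n = 5), control, PVP75 (5.18 ± 0.136, n = 5) and PVP10, and the neighbours citrate75, control and PVP75 were within 1 SD of the wider group.

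Cebpb, the leucine zipper factor gene, read 11.05, 11.33, 11.34 and 11.34 in control. It read 11.62, 11.37, 11.51, 11.56 and 11.48 in PVP10. At this normalized level the groups did not overlap, and the gap between the lowest PVP10 and the highest control array was small. Their deposited signals did overlap (2573 to 4029 in PVP10 and 2330 to 2624 in control). The means of the log2 levels were 11.26 ± 0.140 (SD, n = 4) and 11.51 ± 0.0939 (SD, n = 5), a fitted rise of 1.18-fold (log2 fold change 0.24, SE 0.0887, limma adjusted p = 0.0286). In PVP75 the arrays read 11.58, 11.58, 11.40, 11.58 and 11.58, also above every control array. The deposited PVP75 signals, from 2256 to 4210, overlapped those of control. Citrate10 read 11.11, 11.31, 11.31, 11.42 and 11.20, and citrate75 read 11.18, 11.46, 11.36, 11.25 and 11.30, both across the control range. The order of the means was PVP75 (11.55 ± 0.0802, n = 5), PVP10, citrate75 (11.31 ± 0.108, n = 5), citrate10 (11.27 ± 0.119, n = 5) and control. PVP75 and PVP10 differed by less than 1 SD, and so did the last 3 groups.

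The Cebpb call in PVP10 rested on few arrays, and it was lost in 4 of 21 alternatives and kept in 17. Without control replicate 1, the low control array, its log2 fold change was 0.17 (limma adjusted p = 0.145), without PVP10 replicate 1 it was 0.21 (adjusted p = 0.0827), and without PVP10 replicate 4 it was 0.23 (adjusted p = 0.0605). It was also not called when all probes were tested without the detection filter (limma adjusted p = 0.0597). Without background correction the log2 fold changes of the dim probes shrank to 0.32 for Ier5, 0.34 for Phlda1 and -0.14 for Klf4, and all 3 were still called. That setting added 16 to the uncorrected intensities, so part of the shrinkage comes from the added constant. With the authors' processed values the 3 were 0.36, 0.38 and -0.16, also called. Within chip 1 and chip 2 the PVP10 differences were 0.93 and 0.69 for Junb, 0.56 and 0.90 for Ier5, and 0.68 and 1.08 for Phlda1. They were -0.65 and -0.90 for Myc, -0.37 and -0.54 for Klf4, and 0.09 and 0.32 for Cebpb. The direction was the same on both chips for each of the 6 genes, and the chip 1 values rest on 1 control array.

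**Figure D2:**
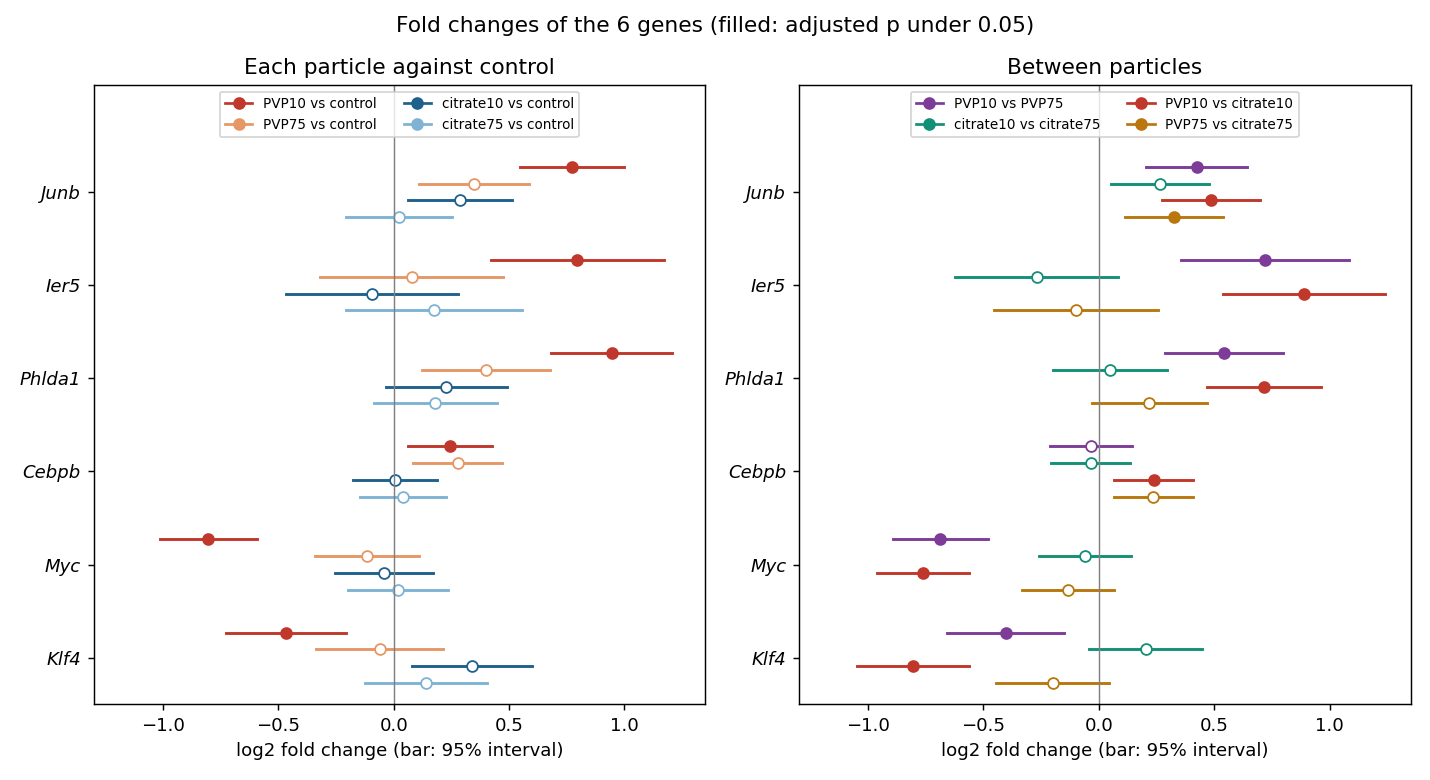
Fitted log2 fold changes of the 6 genes for each particle against control (left) and between particles (right), with 95% intervals, filled where called (limma adjusted p under 0.05). On the left the 6 PVP10 points are filled and those of the other 3 particles are open.

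The same question was put to the PVP75 particles. Of the 6 genes 0 were called by limma, against 5.3% of all tested probes (2.56% higher and 2.74% lower), and 3 of the 6 had an unadjusted p under 0.05. The PVP75 arrays were the least alike, with a mean correlation to their own group of 0.982 (replicate 3) to 0.991. In the other groups this value lay between 0.992 and 0.995. Junb differed by 0.35 (95% interval 0.11 to 0.59, limma adjusted p = 0.0771), Phlda1 by 0.40 (0.12 to 0.68, adjusted p = 0.0794) and Cebpb by 0.28 (0.09 to 0.47, adjusted p = 0.0794). These intervals lie above 0, and a p that misses the threshold does not show that the values did not differ. Ier5 differed by 0.08 (-0.32 to 0.47), Myc by -0.12 (-0.34 to 0.11) and Klf4 by -0.06 (-0.34 to 0.21). Without PVP75 replicate 5 the Ier5 difference was -0.10. Junb was called without control replicate 2 (0.42, limma adjusted p = 0.0404) and with array weights (0.38, adjusted p = 0.0303). Phlda1 was called without PVP75 replicate 4 (0.47, limma adjusted p = 0.0352). Cebpb was called under 5 of the alternative processings, the values processed by the authors among them (0.27, limma adjusted p = 0.0265). Within chip 1 and chip 2, which held 4 and 1 PVP75 arrays, the differences were 0.42 and 0.37 for Junb, 0.24 and 0.57 for Phlda1 and 0.20 and 0.35 for Cebpb. They were -0.06 and 0.01 for Ier5, -0.08 and -0.15 for Myc, and -0.11 and -0.01 for Klf4.

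The citrate-coated particles were compared with the same 4 control arrays. In citrate10, 0 of 6 genes were called by limma, against 0.036% of all tested probes, with 115 probes at an unadjusted p under 0.05. Junb differed by 0.29 (95% interval 0.06 to 0.51) and Klf4 by 0.34 (0.08 to 0.60), both with a limma adjusted p of 0.997. These 2 intervals lie above 0. Phlda1 differed by 0.23 (-0.03 to 0.49), Ier5 by -0.09 (-0.47 to 0.28), Myc by -0.04 (-0.25 to 0.17) and Cebpb by 0.01 (-0.18 to 0.19). In citrate75, 0 of 6 genes were called by limma, and 0% of all tested probes were, with 242 at an unadjusted p under 0.05. The 6 intervals all included 0, from -0.21 to 0.25 for Junb, -0.21 to 0.56 for Ier5, -0.09 to 0.45 for Phlda1, -0.20 to 0.23 for Myc, -0.13 to 0.40 for Klf4 and -0.15 to 0.23 for Cebpb. Within chip 1 and chip 2 the citrate10 differences were 0.34 and 0.28 for Junb and 0.22 and 0.40 for Klf4.

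Particle size was compared within the PVP coating, at equal mass dose. Against PVP75, PVP10 was higher for Junb (log2 difference 0.42, SE 0.107, limma adjusted p = 0.00322), Ier5 (0.72, SE 0.178, adjusted p = 0.00273) and Phlda1 (0.54, SE 0.125, adjusted p = 0.00133). It was lower for Myc (-0.69, SE 0.1, adjusted p = 5.4e-06) and Klf4 (-0.40, SE 0.123, adjusted p = 0.0143). In this comparison 28% of all probes were called, 13% higher and 15% lower. The Klf4 call was lost without the detection filter (adjusted p = 0.108), with only the compared groups (-0.36, adjusted p = 0.0562) and on chip 1 alone (-0.26, adjusted p = 0.351), where Ier5 and Phlda1 also lost theirs. Cebpb was not called, with a difference of -0.03 and a 95% interval of -0.21 to 0.14. Between citrate10 and citrate75, 0 of 6 genes were called, against 0.144% of all probes by limma, which had 381 at an unadjusted p under 0.05. The difference was 0.26 for Junb (0.05 to 0.48), -0.27 for Ier5 (-0.62 to 0.08), 0.20 for Klf4 (-0.04 to 0.45), 0.05 for Phlda1 (-0.20 to 0.30), -0.06 for Myc (-0.26 to 0.14) and -0.04 for Cebpb (-0.21 to 0.14).

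The test of size by coating asks whether the size difference within PVP differed from that within citrate. It was called for 4 of the 6 genes, against 15.2% of all probes (7.07% higher and 8.11% lower). The difference of differences was 0.99 for Ier5 (SE 0.243, limma adjusted p = 0.0057), 0.50 for Phlda1 (SE 0.171, adjusted p = 0.0475), -0.63 for Myc (SE 0.137, adjusted p = 0.00204) and -0.61 for Klf4 (SE 0.169, adjusted p = 0.014). The Phlda1 value lay at the threshold and lost its call in 19 of 32 alternatives, among them the fit with the replicate number as a block. The Ier5 and Klf4 calls were lost without the detection filter (limma adjusted p = 0.0808 and 0.103), and on chip 1 alone none of the 4 was called. Junb was not called, at 0.16 (95% interval -0.14 to 0.46), nor was Cebpb, at 0.00 (-0.24 to 0.24).

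Coating was compared at each size. At 10 nm all 6 genes were called between PVP10 and citrate10, where 41.7% of all probes were (20.4% higher and 21.4% lower). PVP10 was higher by 0.49 for Junb, 0.89 for Ier5, 0.72 for Phlda1 and 0.24 for Cebpb, and the differences were -0.76 for Myc and -0.81 for Klf4. The Cebpb call (limma adjusted p = 0.0222) was lost without PVP10 replicate 1 (0.21, adjusted p = 0.0678), citrate10 replicate 1 (0.20, adjusted p = 0.0727) or citrate10 replicate 5 (0.22, adjusted p = 0.054). On chip 1 alone it was 0.06 (adjusted p = 0.846), and Ier5 and Phlda1 were not called there either. At 75 nm, Junb was called between PVP75 and citrate75 (0.33, SE 0.104, limma adjusted p = 0.0339), where 14.1% of all probes were (6.63% higher and 7.5% lower). That call was lost in 13 of 22 alternatives, for example without citrate75 replicate 1 (0.28, limma adjusted p = 0.119). Cebpb differed by 0.24 (95% interval 0.06 to 0.41, adjusted p = 0.0577) and the other 4 genes had intervals that included 0. Any difference among the 5 groups was called by limma's F test for all 6 genes and for 43.7% of all probes.

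**Figure D3:**
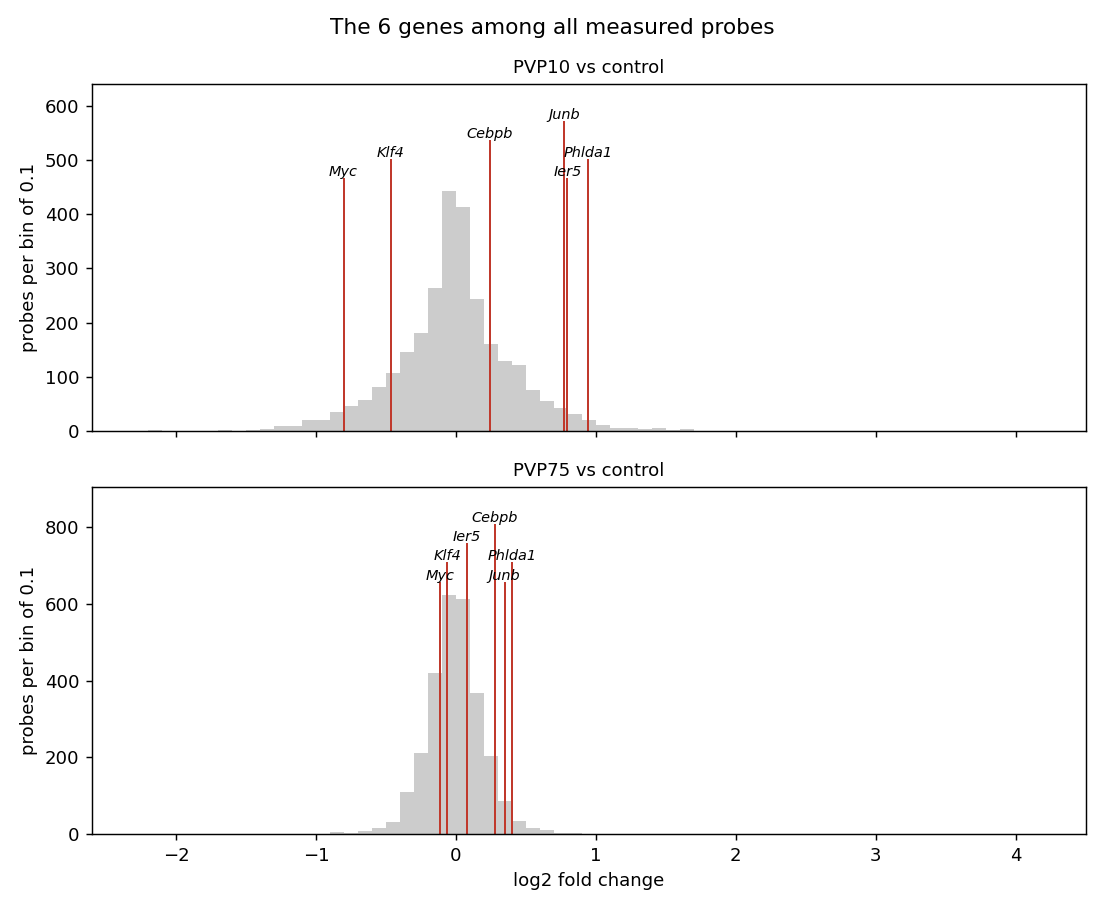
Histograms of the log2 fold changes of the tested probes in PVP10 (top) and PVP75 (bottom) against control, in bins of 0.1, with the 6 genes marked by lines whose height carries no value. The marked values run from -0.80 for Myc to 0.94 for Phlda1 in PVP10 and from -0.12 for Myc to 0.40 for Phlda1 in PVP75.

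Other genes of the same pathways were read from lists that are described by their counts. The list called other immediate early genes also held the growth factor gene Vegfa, and the time course of its members was not measured. In PVP10 against control its 53 genes on the array yielded 17 measured ones. Of these, 8 rose and 2 fell, with a median log2 fold change of 0.24. Of all tested probes, 20.1% were called higher and 21.4% lower in the same comparison. Vegfa, which encodes an endothelial growth factor, rose by 1.25 (SE 0.107), Crem, which encodes a cAMP-responsive factor, by 0.94 (SE 0.098) and the antiproliferative gene Btg1 by 0.72 (SE 0.0859). Srf, which encodes the factor that binds the CArG box, was lower (-1.10, SE 0.0995). A further probe of Crem also rose, by 1.63. Dusp4 and Trib1, counted among the 8, were detected on 0 of 4 control arrays and so had passed the filter only through other groups. For 31 of the 53, Egr1 and Nr4a1 among them, the probes were detected on 0 arrays. The AP-1 partners Jun, Fos and Atf3 likewise were detected on 0 arrays. Of 11 AP-1 partners on the array 2 were measured, and Mafg, which encodes a small Maf protein, rose (0.57, SE 0.101) in PVP10.

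Of 7 measured genes of the MYC network, 1 rose and 1 fell in PVP10. For this list and those below, 20.1% of all tested probes were called higher and 21.4% lower in that comparison. Mxd3, whose product pairs with MAX in place of c-Myc, was lower (-1.52, SE 0.0876) and was detected on 2 of 5 PVP10 arrays, and Zbtb17, which encodes the c-Myc partner Miz-1, rose by 0.36. Of 9 measured targets of c-Myc in growth 3 rose and 3 fell, with a median of 0.11. The cyclin gene Ccnd1 (-0.90) and the nucleolar protein gene Nop56 (-0.63) were lower, as was Cad (-0.45), which encodes an enzyme of pyrimidine synthesis, whereas the translation factor gene Eif4a1 rose by 0.46. Of 3 measured KLF and SP genes Klf5 rose by 0.45 and Klf7 (-0.75) was lower, the latter detected on 2 of 5 PVP10 arrays. The 1 measured gene of the C/EBP list, Cebpz, which encodes a CCAAT-binding protein outside the leucine zipper family, rose by 0.49. Of 2 measured relatives of Phlda1 and Ier5, Phlda3 was lower (-0.58) and the other was not called. In PVP75 the called genes of all these lists were Mafg (0.46), Vegfa (0.66), Klf5 (0.50) and Mxd3 (-0.60), beside the further probe of Crem (0.63). In citrate10 and citrate75 there were 0. Of all tested probes, 5.3% were called in PVP75, 0.036% in citrate10 and 0% in citrate75. The same control arrays enter all 4 comparisons.

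**Figure D4:**
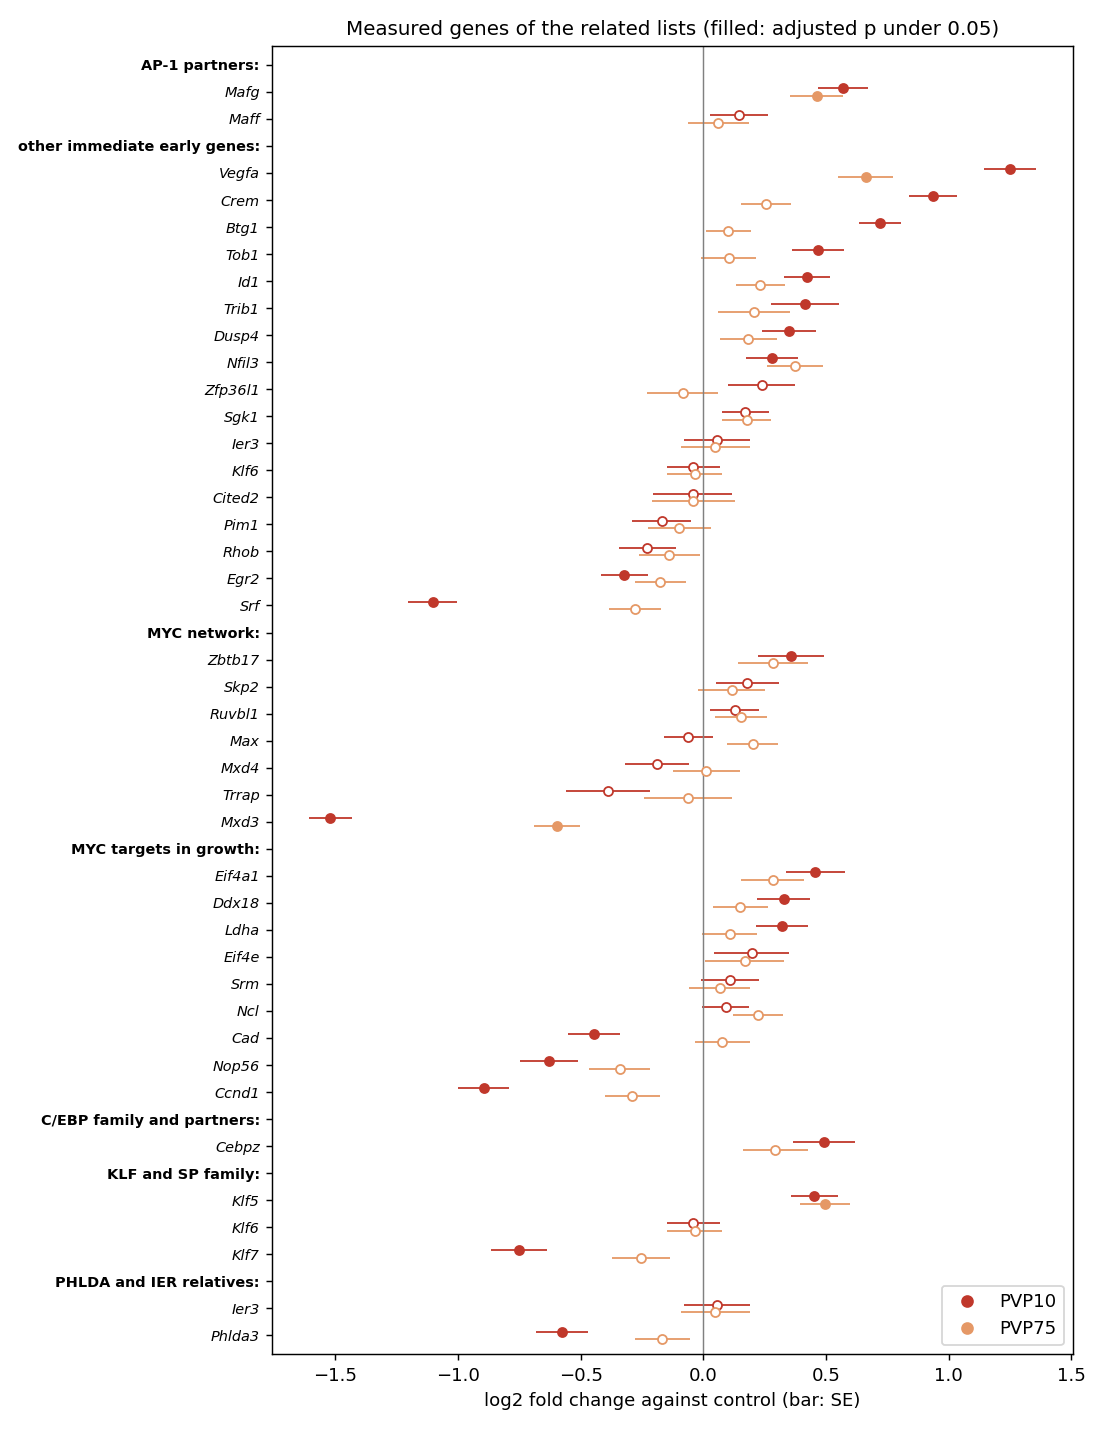
Log2 fold changes in PVP10 and PVP75 against control, with SE, for every measured gene of the pathway lists, 1 row per gene, filled where called. In PVP10 Mxd3 at -1.52 and Vegfa at 1.25 are the lowest and highest points.

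Genes with the most similar pattern were found by Pearson correlation of log2 levels over the 24 arrays, as a description without a test, and the points share their arrays, chips and group differences. Myc was closest to Tbc1d2b (r = 0.931), Smap2 (0.924) and Sin3a (0.917). Phlda1 was closest to Psmb2 (0.902), Ntmt1 (0.877) and Vps18 (0.870), and Junb to Fem1b (0.889), Pcgf3 (0.884) and Psmd12 (0.872). Ier5 was closest to Eif3h (0.861), Nploc4 (0.835) and Ikzf5 (0.798), Klf4 to Bub1b (0.865), Vps36 (0.820) and Map2k4 (0.812), and Cebpb to Stag1 (0.747), Ptgr1 (0.725) and Slc20a1 (0.724). The names depend on the measure. By Spearman correlation 5 of these 18 genes were again among the 3 closest, and by Pearson correlation over the 12 arrays of chip 2 it was 4 of 18. Bub1b for Klf4 and Tbc1d2b for Myc were among the 3 closest by all 3 measures, while for Phlda1 and Cebpb the 3 closest by Spearman correlation were all different. In PVP10 and PVP75 the log2 fold changes against control were -0.88 and -0.11 for Sin3a, which encodes a corepressor scaffold, beside -0.80 and -0.12 for Myc. They were 1.09 and 0.47 for Psmb2, which encodes a proteasome subunit, beside 0.94 and 0.40 for Phlda1. Between the 6 genes, levels correlated at -0.80 for Phlda1 and Myc and 0.66 for Junb and Phlda1 over the 24 arrays. After group means were subtracted, the same pairs correlated at -0.09 and -0.34.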

How the data were processed

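RNA from 24 RBEC4 samples was measured on Illumina bead arrays. The deposited table of non-normalized bead intensity gives a signal and a detection p-value per probe and array, per the file headers, and the submitters' processing notes name GenomeStudio 2011.1. A further deposited table holds intensity values that the authors processed, with column medians between 88.8 and 88.9, and it served as an alternative. These medians nearly coincide, as quantile normalization would give, and the table was taken as quantile normalized. No source used here states its steps. Labels tied every column to a sample, and 0 columns of samples stayed unused.

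Under R 4.3.3, limma 3.58.1 subtracted background by normexp at an offset of 16, taking negative controls from the detection p-values, followed by quantile normalization and log2. Probes with detection p under 0.01 on at least 4 arrays were kept (2774, 12.3%). The linear model (lmFit, eBayes) used all 24 arrays, with terms for group and BeadChip, and p-values were Benjamini-Hochberg adjusted over the kept probes within each comparison. Called means an adjusted p under 0.05. The number of arrays limits the precision. Probe symbols came from the platform annotation, which names 13793 probes and leaves 8730 unnamed.

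The members and lists were chosen with earlier results of these data known. The 6 genes were named throughout, with up to 4 called genes per list by size of change and the 3 most correlated named genes per member. Genes named in other roles, such as markers and undetected genes, were chosen after their values were seen, apart from the marker lists themselves. Replicate numbers were not used as pairs, since no label says that a number marks a shared culture or day. Alternatives covered background, normalization, filters, chip, weights, the replicate block and single arrays left out.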

Additional observations from a re-analysis of the deposited data

Results flagged for a closer look

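Some arrays stood apart from the rest of their group on a test of the gap to the nearest array as a share of the group's range, which chance passes in about 1 in 20 groups. For Phlda1 in PVP10, replicate 5 (level 5.64, chip 1) lay below the other 4 arrays with a gap of 0.728 of the range. For Cebpb in control, replicate 1 (11.05, chip 2) lay below the others with a gap of 0.967 of the range, and for Cebpb in PVP75, replicate 3 (11.40, chip 1) with a gap of 1.00, since the other 4 arrays shared the same normalized value. These 3 cases came from 30 gene and group combinations examined.

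The interaction test in limma over 24 arrays called 4 of the 6 genes and 15.2% of all probes. The size effect in PVP minus that in citrate was 0.987 for Ier5, 0.496 for Phlda1, -0.628 for Myc and -0.606 for Klf4 on the log2 scale. The Phlda1 call was lost in 19 of 32 alternatives. Those of Ier5 and Klf4 were lost without the detection filter, and on chip 1 alone none of the 4 was called.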

How the results depend on the processing

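The calls of Junb, Ier5, Phlda1, Myc and Klf4 in PVP10 against control held under all 21 alternatives each, and between 5 and 6 of the 6 genes were called there. Over all 54 gene results and 1230 alternatives, 1119 kept direction and call, 52 lost a call, 15 gained one and 44 changed sign. None of the 44 sign changes was in a called value. Where a result changed, the cause was not tested, except that leaving out arrays, groups or the filter by construction changes the number of arrays or probes.

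For Cebpb in PVP10 the log2 fold change was 0.24 without the detection filter and lay between 0.17 and 0.28 with 1 array left out. With cyclic loess it was 0.39 (limma adjusted p = 0.000496), so its size depends on the normalization. For PVP75 against control, 1 gene was called in place of 0 without background correction (Cebpb 0.27), with an offset of 50 (0.27), with the authors' processed values (0.27), with cyclic loess (0.36) and without the chip term (0.29), and with array weights (Junb 0.38). With 1 array left out, 0 to 1 genes were called, with values from 0.27 to 0.42 for Junb, 0.32 to 0.47 for Phlda1 and -0.10 to 0.19 for Ier5. The count of probes called was 147, against 71 without the filter, 46 with only the compared groups and 74 to 153 with 1 array left out. Its highest value under any alternative was 211. For PVP75 against citrate75, 1 gene was called, against 2 without background correction, with an offset of 50, with the authors' values and with array weights, and 0 without the filter, without the chip term, on chip 1, with only the compared groups and with both arrays of high Ier5 left out, and 0 to 2 with 1 array left out. That last pair, PVP75 replicate 5 and citrate75 replicate 1, was chosen after seeing the data. The probes called there were 392, against 205 without the filter, 125 on chip 1 and 257 with only the compared groups. For the interaction, 421 probes and 4 genes were called, against 238 and 1 without the filter and 36 and 0 on chip 1. On chip 1 alone PVP10 against PVP75 gave 377 probes and 2 genes, and PVP10 against citrate10 gave 522 and 3. For citrate10 against citrate75, 4 probes were called, against 9 without background correction, 8 with an offset of 50, 9 with the authors' values, 1 without the filter, 8 without the chip term, 1 on either chip, 2 with only the compared groups, 71 with array weights, 1 without both arrays of high Ier5 and 1 to 23 with 1 array left out. For citrate10 against control, 0 probes were called without background correction in place of 1, and for citrate75 against control 13 with array weights in place of 0.

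Sign changes in values near 0 were as follows. Cebpb was 0.035 in PVP10 against PVP75 with cyclic loess. Without the chip term Junb was -0.016 in citrate75 against control and Cebpb -0.0021 in the interaction. On chip 2, Ier5 was 0.032, Myc 0.025 and Cebpb -0.033 in citrate10 against control, Junb -0.034 in citrate75 against control, and Myc 0.0054 in citrate10 against citrate75. On chip 1, Cebpb was 0.056 in citrate10 against citrate75 and -0.17 in the interaction. With only the compared groups, Ier5 was -0.022 in PVP75 against control, and Cebpb -0.013 in citrate10 against control and -0.0020 in the interaction. With array weights Cebpb was -0.0081 in citrate10 against control and -0.0043 in the interaction. Without both arrays of high Ier5, Ier5 was -0.070 in PVP75 and Myc -0.0064 in citrate75, both against control. With 1 array left out, Cebpb ranged from -0.069 to 0.015 in PVP10 against PVP75, -0.079 to 0.00097 in citrate10 against citrate75, -0.063 to 0.047 in citrate10 and -0.024 to 0.072 in citrate75 against control, and -0.042 to 0.046 in the interaction. Ier5 ranged from -0.29 to 0.043 in PVP75 against citrate75, Junb from -0.063 to 0.10 in citrate75 against control, Myc from -0.13 to 0.0083 in citrate10 and -0.063 to 0.068 in citrate75 against control, and Phlda1 from -0.0082 to 0.12 in citrate10 against citrate75.

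Deviations from the group means were correlated between same-numbered arrays of the groups compared. In every comparison 0 of 4 or 5 pairs lay above 0.1, except PVP75 against citrate75 with 1 of 5 (highest 0.31). The deviations were not adjusted for the chip, and such values cannot show whether a number marks a shared culture. With the replicate block, Phlda1 in the interaction was 0.49 (limma adjusted p = 0.0677), and this was the only gene call it changed. In PVP10 against control the block gave 0.75 for Junb, 0.73 for Ier5, 0.94 for Phlda1, -0.82 for Myc, -0.49 for Klf4 and 0.25 for Cebpb. The signals of Ier5, Phlda1 and Klf4 near the array medians limit what their fold changes can show.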
